A study of Mus musculus with 2 samples.

Results

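The oxidative phosphorylation genes described here are the rows of the count table whose symbols start with Nduf, Sdha to Sdhd, Uqcr, Cox4 to Cox8, Atp5 or mt-, and that had at least 50 UMIs over the barcodes kept. A UMI is a unique molecular identifier, and each one counted stands for 1 captured RNA molecule. Of the 19144 genes in the table, 123 matched these prefixes and 107 of those reached 50 UMIs: 88 nuclear genes and 19 genes of the mitochondrial genome. The 7 nuclear rows below the limit were the pseudogene Atp5l-ps1, Atp5g2, Cox8b, Ndufa4l2, Cox4i2, Cox7b2 and Cox8c, and the 9 mitochondrial rows below it were mt-Co2, mt-Co3, mt-Atp6 and 6 transfer RNA genes. The members were picked by name and by the minimum of 50 UMIs.

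The cells came from primary neurospheres, free-floating clones of neural precursor cells, raised from the lateral ventricle walls of CD1 mouse embryos whose age the labels do not give. They were grown in serum-free medium with 10 ng/mL leukemia inhibitory factor (LIF) and counted after 7 to 10 days, at a diameter of at least 50 μm; the labels also name EFH in the medium without spelling it out. There was no untreated or otherwise treated group, and the 2 labelled samples share 1 table that does not say which barcode came from which, so the table was treated as 1 sample and no test between samples was made. The series text speaks of single nuclei and the protocols of dissociated spheres. Barcodes that were kept are here called cells.

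Oxidative phosphorylation is the last stage of respiration. Complex I (NADH dehydrogenase) and complex II (succinate dehydrogenase) pass electrons to complex III, complex III passes them through cytochrome c to complex IV (cytochrome c oxidase), and complex V (ATP synthase) uses the proton gradient that complexes I, III and IV build. Most subunits are encoded in the nucleus, made in the cytosol and imported, whereas a few core subunits of complexes I, III, IV and V are encoded by the small circular mitochondrial genome together with the ribosomal and transfer RNAs needed to translate them. Neural stem cells are known for relying much on glycolysis and for raising oxidative phosphorylation as they differentiate.

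The table held 4000 barcodes, of which 3765 were kept for having 500 or more genes detected and no more than 10% of UMIs from the mitochondrial genome, with 17395968 UMIs in all and a median of 3869 per cell (range 638 to 54060). Radial glia markers (Fabp7, Sox2, Sox9, Nes, Vim, Slc1a3, Hes5 and Pax6) were all detected and summed to 12790.3 UMIs per 1000000 UMIs (CPM), against 364 CPM for 8 neuron markers and 33.3 CPM for 5 markers of oligodendrocyte precursors. Microglia, fibroblast, erythroid and endothelial lists held 1, 15, 4 and 81 UMIs in all. Each level below carries an exact 95% Poisson interval, each ratio an exact conditional binomial one; these cover counting error only, not differences between cultures. Drop-seq counts each captured molecule once from its 3′ end, so levels of different genes are compared as captured molecules, without division by length. How well each RNA was captured was not measured. Levels of messenger, ribosomal and transfer RNAs may therefore not compare as amounts in the cell.

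Together the 88 nuclear members made up 5.30% of all UMIs, 53039.9 CPM (52932 to 53148), and the 19 mitochondrial members 3.03%, 30275 CPM (30194 to 30357). The median nuclear member stood at 468 CPM, against 29.3 CPM for all genes with at least 50 UMIs, and 2.85% of those genes were above the members' median. For scale, 88 cytosolic ribosomal protein genes summed to 83123 CPM and 77 mitochondrial ribosomal protein genes to 11640.1 CPM.

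Complex I, which oxidises NADH, was measured through 36 nuclear subunits that summed to 16619 CPM. The 7 core subunits, which carry the flavin and iron-sulfur clusters of the electron path, ranged from 123 CPM for Ndufs1 to 494 CPM for Ndufv2, with Ndufv1, the NADH-binding subunit, at 138 CPM. The 29 accessory subunits, which surround and stabilise the core, had a median of 449 CPM, against 335 CPM for the core ones. Ndufc2 was the most abundant at 1288 CPM, followed by Ndufc1 at 953 CPM and Ndufa2 at 816 CPM, and Ndufs5 the least abundant at 46.2 CPM. The 7 assembly factors of complex I, which help build the enzyme but are not part of it, were lower, with a median of 47.9 CPM and a range from 36.7 CPM for Ndufaf3 to 228 CPM for Ndufaf4.

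Complex II, the one enzyme shared by the respiratory chain and the citric acid cycle, is wholly nuclear-encoded and had the smallest sum, 1270.1 CPM. Sdhb, the iron-sulfur subunit, was highest at 525 CPM, the membrane anchors Sdhc and Sdhd stood at 289.9 and 251 CPM, and Sdha, the flavoprotein that oxidises succinate, was lowest at 204 CPM. The interval of Sdha (197 to 211) did not overlap that of Sdhd (244 to 259). Complex III had 8 measured nuclear subunits and 5966 CPM. Its small subunits Uqcrq, Uqcrh, Uqcr10 and Uqcr11 were at 1283, 1079, 976 and 901 CPM, above the Rieske iron-sulfur protein Uqcrfs1 at 502 CPM and the large core proteins Uqcrc1 and Uqcrc2 at 362 and 318 CPM. Cyc1, the cytochrome c1 of the complex, lies outside the symbol prefixes.

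Complex IV, which hands electrons to oxygen, summed to 16334 CPM over 15 subunits, close to complex I with 36. Its median subunit, at 1279 CPM, was the highest of the 5 complexes (complex I 399, II 271, III 723 and V 915 CPM). Cox4i1, a regulatory subunit, was the most abundant nuclear member of all at 2089 CPM, followed by Cox6a1 at 1873, Cox6c at 1869.6, Ndufa4 at 1782 and Cox6b1 at 1762 CPM. Ndufa4 was named for complex I but is now counted as a complex IV subunit, and it is grouped so here. Complex V summed to 12057 CPM over 14 subunits, led by Atp5b at 1370.1 CPM, the catalytic beta subunit. Its alpha partner in the catalytic head, Atp5a1, was at 1036 CPM and the gamma subunit of the central stalk, Atp5c1, at 1090.0 CPM. Lowest was Atp5l, a small membrane subunit, at 14.3 CPM. Atp5s and Atp5sl, which share the prefix but are not part of the enzyme, were at 17.7 and 9.66 CPM.

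Other subunits of complex IV spanned a range of levels. Cox5a and Cox5b, which are structurally unrelated despite their names, were at 1254 and 487 CPM, Cox7b at 1605 CPM and Cox8a at 1279 CPM. Cox7c, at 334 CPM, and Cox7a2l, at 438 CPM, were lower; the latter is known for joining complexes III and IV into supercomplexes. In complex V, the other central stalk subunits, Atp5d and Atp5e, were at 702 and 875 CPM. The peripheral stalk, which holds the catalytic head still, was represented by Atp5f1 at 1040.0, Atp5h at 719, Atp5j at 927 and Atp5o, which confers oligomycin sensitivity, at 1038 CPM. The head subunits Atp5a1 and Atp5b, the gamma subunit Atp5c1 and these 4 peripheral stalk subunits all lay between 719 and 1370.1 CPM.

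**Figure D1:**
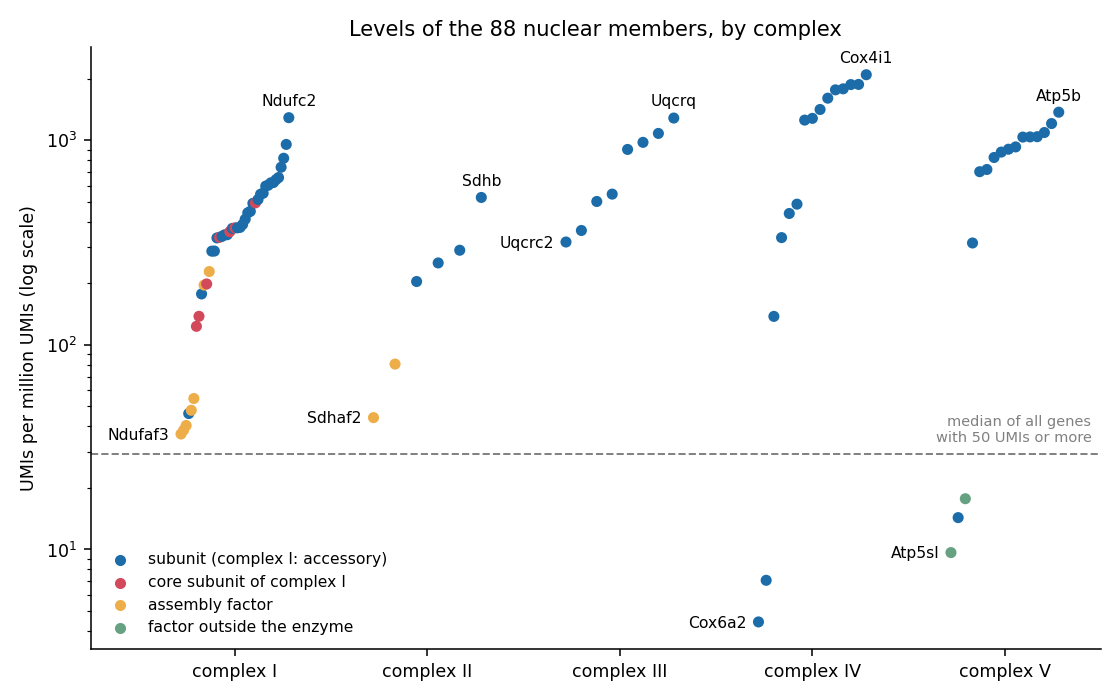
Level of each of the 88 nuclear members, in CPM on a log axis, grouped by complex and ordered by level within it; colours give the role, the dashed line is the median of all genes with at least 50 UMIs (29.3), and the highest and lowest member of each complex are named. Subunits of complexes III to V reach past 1000, assembly factors (yellow) sit at the low end of complexes I and II, and the muscle-type subunit Cox6a2 is lowest at 4.43.

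Several complex IV subunits, and the c-ring of complex V, exist as alternative genes, and in most complex IV pairs nearly all UMIs came from 1 form. Cox4i1 had 36336 UMIs and Cox4i2, its lung and hypoxia form, 15. The liver or ubiquitous forms Cox6a1, Cox7a2 and Cox8a had 32582, 24573 and 22241 UMIs, against 77, 123 and 37 for the heart and skeletal muscle forms Cox6a2, Cox7a1 and Cox8b. Ndufa4 had 31005 UMIs and Ndufa4l2, a known HIF-1 target, 33. The minor form took under 0.5% of the pair's UMIs in each of these, the highest share being 0.498% for Cox7a1. Cox6b2, known as the testis form of Cox6b1, was the exception among the complex IV pairs, with 2396 UMIs or 7.25% of the pair. Cox7b2 and Cox8c had 1 UMI each. For the c-ring, whose 3 genes encode the same mature protein, Atp5g3 had 15716 UMIs, Atp5g1 5472 and Atp5g2 34; the last has a near-identical copy in the annotation, described below.

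Among the genes of the mitochondrial genome, the large ribosomal RNA mt-Rnr2 was highest at 9235 CPM and the small one, mt-Rnr1, stood at 1319.7 CPM; both together made up 34.9% of the mitochondrial UMIs. Of the messenger RNAs, the complex I subunits mt-Nd1, mt-Nd2, mt-Nd4, mt-Nd5 and mt-Nd6 were at 7287, 2609, 1505, 1265 and 111 CPM. mt-Cytb, the cytochrome b of complex III, was at 6087 CPM, and mt-Co1, the catalytic subunit of complex IV, at 631 CPM. mt-Rnr2, mt-Nd1 and mt-Cytb alone took 74.7% of mitochondrial UMIs. mt-Nd6, the lowest of the 7 messenger RNA members, is the 1 protein gene that is read from the light strand. The 10 transfer RNA members ranged from 8.80 CPM for mt-Tw to 63.3 CPM for mt-Ty.

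The other 3 mitochondrial protein genes in the table were almost absent. mt-Co2 and mt-Co3, the copper-binding and the third core subunit of complex IV, had 11 UMIs each, and mt-Atp6, the proton-channel subunit of complex V, had 5, in 3765 cells where mt-Co1 had 10985 UMIs. These genes lie next to one another on the mitochondrial genome, and GENCODE M21 (build GRCm38, also called mm10) annotates a copy of this stretch in the nuclear genome, on the minus strand of chromosome 1. The pseudogenes there, Gm28661, Gm10925 and Gm28437, were identical to mt-Co2, mt-Atp6 and mt-Co3 over all 681, 678 and 783 annotated bases, and Gm29216 matched mt-Co1 at 486 of 492 bases. None of these pseudogenes was among the genes of the count table. The last 150 bases of the stretch that mt-Co3 shares with its copy are shown because no base in them tells one locus from the other, and a stretch of mt-Co1 is shown with its copy because it holds 6 bases, in capitals, that differ.
mt-Co3, chrM:9240-9389, plus strand: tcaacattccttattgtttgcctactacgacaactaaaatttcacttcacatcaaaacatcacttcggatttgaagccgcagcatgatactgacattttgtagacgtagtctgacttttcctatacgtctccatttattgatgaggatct
Gm28437, chr1:24613189-24613338, minus strand: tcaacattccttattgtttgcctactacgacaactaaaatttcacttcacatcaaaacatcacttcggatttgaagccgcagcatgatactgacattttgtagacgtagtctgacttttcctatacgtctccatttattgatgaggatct
mt-Co1, chrM:6383-6532, plus strand: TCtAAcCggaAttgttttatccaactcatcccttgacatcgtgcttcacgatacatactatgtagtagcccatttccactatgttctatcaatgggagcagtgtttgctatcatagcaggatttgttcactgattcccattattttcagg
Gm29216, chr1:24616046-24616195, minus strand: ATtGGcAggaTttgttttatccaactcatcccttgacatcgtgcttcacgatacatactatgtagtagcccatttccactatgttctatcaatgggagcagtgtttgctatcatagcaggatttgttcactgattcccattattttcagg

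How far each transcript's 3′ end can be told from other loci was measured as the share of 50-base windows in its last 500 bases that occur in an annotated transcript, on either strand, of another locus. For mt-Co2, mt-Co3 and mt-Atp6 this share was 100%, 99.8% and 99.3%. It was 95.3% for mt-Co1, which nevertheless had 631 CPM, 17.7% for mt-Nd2, 12.6% for mt-Nd5 and 0 for mt-Nd1, mt-Nd4, mt-Nd6 and mt-Cytb. Whether the authors' pipeline left out reads that match more than 1 place is not given in the sources used here, and the part of these copies in the low counts was not tested. The same measure was high for some nuclear members. Atp5g2 had 99.1% of windows in other loci, Atp5l 75.2%, Atp5h 60.3%, Cox7c 57.6%, Ndufs3 53.9%, Uqcrb 46.6% and Ndufs5 43.5%, with processed pseudogenes as the main partners (Gm10175 for Atp5g2, Gm10250 for Atp5h). Of the 75 nuclear rows with under 10% of such windows the median level was 438 CPM, of the 13 with 10 to 50% 487 CPM, and of the 5 with at least 50% 198 CPM. Atp5h, at 719 CPM, was the highest of the last. The lowest subunits named above, Ndufs5 and Atp5l, and the level of mt-Co1 are therefore uncertain. Windows shared with a gene annotated over the same locus are not in these shares. They were 100% for Uqcrc2, 46.1% for Ndufb6, 41.2% for Atp5o and 38.6% for Cox5a, and their part in those levels was not tested.

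**Figure D2:**
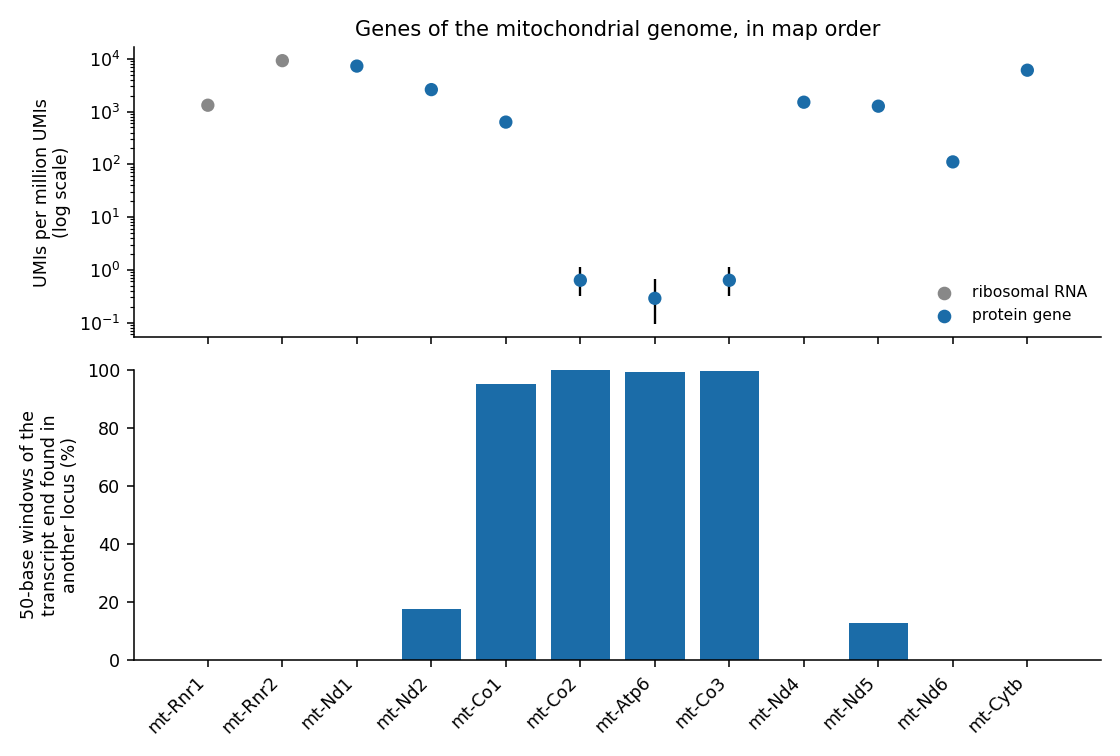
Upper panel, CPM on a log axis for the ribosomal RNA and protein genes of the mitochondrial genome in map order, with 95% Poisson intervals (smaller than most points); lower panel, the percentage of 50-base windows in the last 500 transcript bases that occur in another annotated locus. The run mt-Co1 to mt-Co3 is the run with shares of 95.3% or more, and 3 of these 4 genes are below 1 CPM.

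Nuclear members outnumbered mitochondrial ones 1.75 to 1 in UMIs, and 2.72 to 1 when only mitochondrial messenger RNAs were counted of the 7 protein genes that are members. Missing from the 7 were the almost absent mt-Co2, mt-Co3 and mt-Atp6, and mt-Nd3, mt-Nd4l and mt-Atp8, which were not among the genes of the count table. The part of these genes, and of the uncertain mt-Co1, in the balance was not tested. Cells differed in this balance. The share of mitochondrial UMIs had a median of 2.96% per cell, with 1.76% and 5.67% at the 5th and 95th percentiles, below the limit of 10% used to keep cells. To compare cells at equal depth, each was thinned at random to 1000 UMIs, which left out 189 shallower cells and kept 3576. A thinned cell then held 52.6 ± 12.3 nuclear member UMIs (SD over cells, which are not replicates) and 31.6 ± 12.8 mitochondrial ones. The variance over the mean, about 1 for counting noise alone, was 2.86 for the nuclear and 5.19 for the mitochondrial members, against 4.33 for cytosolic and 1.26 for mitochondrial ribosomal protein genes.

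Correlations across cells were weak, positive among the nuclear complexes and negative between nuclear and mitochondrial members. Across the 3576 thinned cells, Pearson's r between the UMIs of complexes I, III, IV and V lay between 0.237 (I with III) and 0.315 (I with IV), whereas r between all nuclear and all mitochondrial members was -0.123. With cytosolic ribosomal protein genes, r was 0.187 for the nuclear and -0.190 for the mitochondrial members. These are descriptions over cells of 1 table, without p-values. All counts of a cell share its 1000 UMIs, so genes that take more leave less for others, and weak values such as these are no finding in sparse counts.

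When cells were sorted by their mitochondrial share into 5 groups of 753, that share ran from 1.92% to 4.95% by construction, while the nuclear members, taken as CPM of the non-mitochondrial UMIs, stayed between 53228 and 55705. The ratio of nuclear to mitochondrial members thus ran from 2.71 to 1.03. Genes of S phase and G2/M ran from 18454 to 9879 CPM on that scale across the same groups, and the nuclear RNA Malat1 from 2683 to 5499. Median depth was 4248 UMIs in the lowest group and 2772 in the highest. Sorted by depth instead, the shallowest group had 49223 CPM of nuclear members on that scale and the other 4 between 54255 and 55935, with Malat1 at 9246 in the shallowest and at most 3627 in the rest.

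To relate the members to proliferation, the thinned cells were grouped by 42 S phase genes and 52 G2/M genes, none of them a member. S-high cells (510) had at least 8 UMIs of the S list, G2/M-high cells (628) at least 16 of the G2/M list, each without reaching the other cut, and cycle-low cells (1327) were at or below the median of both lists. These are ranges of a score and not cell types: 161 cells lay at the S cut and 196 1 UMI below it, and 60 and 71 at the G2/M cut. Median depth was 4388, 5333 and 3549 UMIs. Levels come from all UMIs of the grouped cells. A gene was counted as past the fold where the whole interval of its ratio lay below 0.8 or above the inverse of 0.8, which is a rule of size and not a test.

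Both arms of the system were lower in cycling cells. The nuclear members were at 49992 CPM in G2/M-high and 50509 CPM in S-high cells, against 57274 CPM in cycle-low cells. The ratio to cycle-low cells was 0.873 (0.868 to 0.878) for G2/M-high and 0.882 (0.876 to 0.888) for S-high. The mitochondrial members were at 26249, 28712 and 33892 CPM in the same groups, ratios of 0.774 (0.769 to 0.780) and 0.847 (0.840 to 0.854). Cytosolic ribosomal protein genes had ratios of 0.934 and 0.958, and mitochondrial ribosomal protein genes 1.05 and 1.06. Malat1 was at 2751, 2571 and 3758 CPM in G2/M-high, S-high and cycle-low cells; its part in the result was not tested. Among cells above the median depth the nuclear ratios were 0.861 and 0.871. The neuron list summed to 293, 344 and 440.1 CPM in these groups, with UMIs of all 8 markers in each and most of them from Map2. Of the 7 markers with at least 50 UMIs, 6 were past the fold downwards in G2/M-high and 3 in S-high cells. Over all genes, 8.59% and 5.32% were past it downwards. In cells without a UMI of any neuron marker but Map2, a comparison added after the data were seen, which left 549, 442 and 1169 cells, the nuclear ratios were 0.874 and 0.886 and the mitochondrial ones 0.787 and 0.839. The HIF target list used further below had ratios of 0.641 and 0.518 in the cycle comparisons; its part was not tested. Cells high for both lists (83) had 46296 CPM of nuclear members.

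The difference was small per gene and spread over most nuclear members. In G2/M-high cells 77 of 88 nuclear members had a ratio below 1, where 57.8% of all 11057 genes did, and in S-high cells 76 of 88, where 56.4% did. The median ratio of the nuclear members was 0.894 and 0.881, against 0.943 and 0.952 over all genes. Few passed the fold: in G2/M-high cells 0 members were past it upwards and 7 downwards (background 8.37% and 8.59% of all genes), and in S-high cells 0 upwards and 4 downwards (background 8.03% and 5.32%). The 7 were 4 of 88 nuclear (4.55%) and 3 of 19 mitochondrial members (15.8%), and the 4 were 3 and 1 (3.41% and 5.26%), so the nuclear shares were below the background and the mitochondrial share in G2/M-high cells above it.

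By complex, G2/M-high cells had the lowest ratio in complex IV, 0.830 (0.822 to 0.838), then complex III at 0.858 (0.844 to 0.872), complex I at 0.895 (0.886 to 0.904), complex V at 0.904 (0.893 to 0.915) and complex II at 0.920 (0.889 to 0.953). In these ratios complexes I, II and V hold 43, 6 and 16 members, with assembly factors, Atp5s and Atp5sl included. Complex I accessory subunits alone were at 0.884 (0.875 to 0.894) and core subunits at 0.913 (0.887 to 0.940). All 15 complex IV members and all 8 complex III members were below 1 in both comparisons. In S-high cells complex IV was again lowest at 0.856 (0.847 to 0.866) and complex V highest at 0.907 (0.895 to 0.920). The sum of the 9 assembly factors of complexes I and II had a ratio of 1.08 (1.03 to 1.13) in G2/M-high and 1.16 (1.10 to 1.22) in S-high cells. The 77 nuclear subunits were at 0.870 and 0.879. Of the 9 factors, 6 were above 1 and 3 below in each comparison, with median ratios of 1.17 and 1.05. In S-high cells Ndufaf2 and Ndufaf4 gave 571 and 635 of the 2097 UMIs of the 9.

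Ndufaf6, an assembly factor that helps make mt-Nd1 protein, had 54.2 CPM against 43.5 CPM in cycle-low cells in the G2/M comparison, a ratio of 1.247 (1.03 to 1.51), and 1.47 (1.19 to 1.80) in the S comparison. Ndufaf2, which acts late in complex I assembly, had 1.21 (1.10 to 1.34) and 1.38 (1.24 to 1.53). Ndufa5, an accessory subunit of the matrix arm, had the highest ratio of any subunit in G2/M-high cells, with 613 CPM against 492 CPM; its ratios were 1.246 (1.18 to 1.32) and 1.15 (1.08 to 1.23), and Ndufab1, the mitochondrial acyl carrier protein that also serves lipoic acid synthesis, had 1.09 (1.03 to 1.15) and 1.03 (0.972 to 1.10). None of these passed the fold. At the low end, Cox7a1 was at 4.58 CPM against 13.2 CPM (18 against 73 UMIs) in the G2/M comparison, a ratio of 0.346 (0.195 to 0.586). Cox6b2 was at 129 CPM against 201 CPM, a ratio of 0.639 (0.574 to 0.710), and its ratio in S-high cells was 0.396 (0.340 to 0.460). Ndufv3, a small accessory subunit of the NADH module, had 0.678 (0.627 to 0.733) and 0.710 (0.649 to 0.777). Ndufa1, an accessory subunit of the membrane arm, at 0.733 (0.684 to 0.785), completed the nuclear members past the fold in G2/M-high cells.

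The most abundant subunits differed by similar amounts. In G2/M-high cells Cox4i1 was at 1907 CPM against 2345 CPM, a ratio of 0.814 (0.791 to 0.837), Cox6c at 0.797 (0.774 to 0.822) and Cox6b1 at 0.801 (0.776 to 0.826). Atp5b, the catalytic subunit of ATP synthase, was nearer to 1 at 0.904 (0.873 to 0.936). In S-high cells the same 4 genes were at 0.843, 0.853, 0.855 and 0.891. Of the complex II subunits Sdhc was lowest, at 0.824 (0.763 to 0.889) and 0.770 (0.703 to 0.843), while Sdha had 0.985 (0.900 to 1.08) and 0.932 (0.837 to 1.04), Sdhb 0.905 (0.855 to 0.958) and 0.861 (0.806 to 0.921), and Sdhd, above 1, 1.04 (0.953 to 1.12) and 1.11 (1.01 to 1.22). In complex III the Rieske protein Uqcrfs1 was nearest to 1 of the 8 subunits, at 0.977 (0.922 to 1.04) and 0.947 (0.885 to 1.01).

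**Figure D3:**
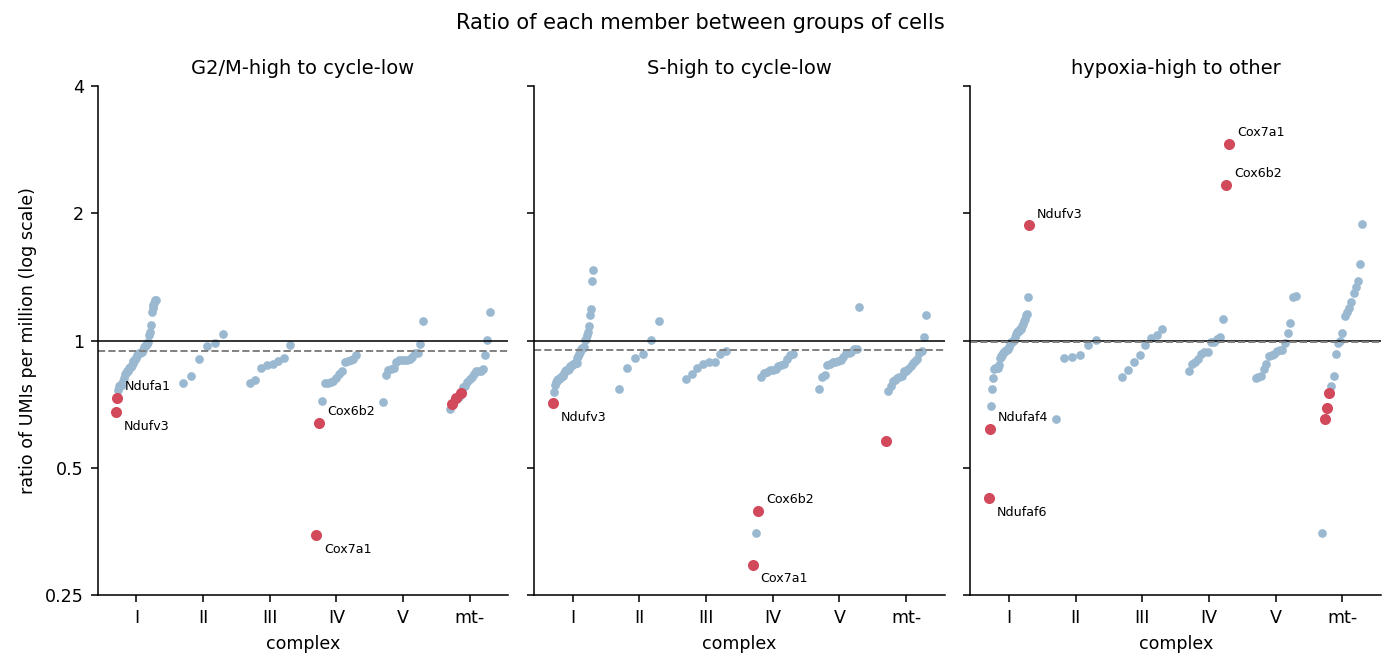
Ratio of CPM between groups of cells for each member, on a log axis, by complex and for mitochondrial genes; red points have their whole 95% interval below 0.8 or above its inverse, the solid line is 1 and the dashed line the median of all genes tested (0.943, 0.952 and 0.993). The unnamed red mitochondrial points are mt-Rnr2, mt-Nd4 and mt-Cytb in G2/M-high, mt-Tp in S-high and mt-Nd1, mt-Nd2 and mt-Rnr1 in hypoxia-high cells; Cox6a2, without a UMI in hypoxia-high cells, is not drawn.

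All 9 ribosomal and messenger RNA members of the mitochondrial genome had ratios below 1 in both comparisons. In G2/M-high cells mt-Rnr2 was lowest, at 7396 CPM against 10445 CPM, a ratio of 0.708 (0.698 to 0.718). mt-Nd4 followed at 0.732 (0.707 to 0.757) and mt-Cytb at 0.751 (0.738 to 0.763); these 3 were past the fold. mt-Nd1 at 0.846 (0.833 to 0.859), mt-Nd2 at 0.834 (0.812 to 0.855) and mt-Rnr1 at 0.855 (0.825 to 0.887) were nearer to 1. In S-high cells the messenger RNAs ran from 0.781 (0.751 to 0.812) for mt-Nd4 to 0.886 (0.871 to 0.902) for mt-Nd1. mt-Tp, a transfer RNA, was at 75 against 280 UMIs there, a ratio of 0.578 (0.442 to 0.748).

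The rest of mitochondrial biology, taken from lists of genes that are not members, held lists on both sides of 1. Of all genes, 8.37% and 8.03% were past the fold upwards, and 8.59% and 5.32% downwards, in G2/M-high and S-high cells, beside which the counts below stand. Of 20 genes of the citric acid cycle and pyruvate entry, 0 passed the fold in either cycle comparison, with ratios of the sum of 0.936 (0.917 to 0.955) and 0.922 (0.901 to 0.944). Of 37 oxidative phosphorylation genes outside the prefixes, such as cytochrome c, 0 were past it upwards and 4 downwards in G2/M-high cells and 0 in S-high cells. Of 11 measured regulators of mitochondrial biogenesis, 3 were past the fold upwards in G2/M-high and 2 in S-high cells and 0 downwards, among them Nrf1, a transcription factor for many respiratory genes, at 1.91 (1.47 to 2.50) in G2/M-high cells, and Tfam, which packages the mitochondrial genome, at 1.52 (1.31 to 1.77) in S-high cells. The sum of that list had ratios of 1.30 (1.23 to 1.39) and 1.27 (1.18 to 1.36). Glycolytic enzymes had 0.822 (0.806 to 0.839) and 0.835 (0.816 to 0.855), with 5 and 5 of 17 past the fold downwards and 0 upwards. Import genes had 1.01 and 1.05, and mitochondrial chaperones and proteases 1.09 and 1.14.

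Hypoxia-high cells were those with at least 4 UMIs, at 1000 UMIs per cell, of a list of 19 HIF targets, such as Bnip3, Vegfa and Pdk1, that held no glycolytic enzyme and no member. HIF is the transcription factor that accumulates when oxygen is low. There were 176 such cells and 3400 others; 72 lay at the cut and 141 1 UMI below. Oxygen was not measured, and the name stands only for the list. Of the hypoxia-high cells 60.8% were also cycle-low, against 35.9% of the others, and the markers of oligodendrocyte precursors summed to 40 against 532 UMIs (59.6 and 32.1 CPM). Cspg4, the 1 of them to reach 50 UMIs, was at 1.38 (0.885 to 2.07), an interval across 1. The sums of the neuron and radial glia lists were at 1.02 (0.896 to 1.16) and 1.02 (0.994 to 1.04). Of their markers, 2 of 7 and 3 of 8 were past the fold upwards and 0 downwards. Over all genes 5.26% were past it upwards and 2.23% downwards, beside which these counts and that of the glycolytic enzymes below stand. A UMI of a neuron marker other than Map2 was in 31 of 176 hypoxia-high and 390 of 3400 other cells. Malat1 was at 4863 against 2976 CPM with median depths of 3260 and 4091 UMIs. The part of Malat1 and of the oligodendrocyte precursor and radial glia markers in the results below was not tested. The nuclear ratio without those neuron-marker cells is given at the end. All 17 glycolytic enzymes, which the rule did not use, had ratios above 1, 14 of them past the fold, and their sum had a ratio of 2.33 (2.27 to 2.39).

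Beside that difference in glycolytic transcripts, the nuclear members as a whole were at 51155 CPM in hypoxia-high and 53264 CPM in other cells. Their ratio, 0.960 (0.950 to 0.971), was nearer to 1. It moved to 0.923 (0.913 to 0.934) with another seed and to 0.884 (0.871 to 0.897) within cycle-low cells. Both of these comparisons were added after the data were seen. Of the 88 nuclear members, 58 were below 1, where 50.7% of all genes were, with a median ratio of 0.949 against 0.993. Complex I was at 0.998 (0.979 to 1.02), complex II at 0.929 (0.868 to 0.994), complex III at 0.925 (0.895 to 0.955), complex IV at 0.951 (0.933 to 0.970) and complex V at 0.941 (0.919 to 0.962). Assembly factors, Atp5s and Atp5sl are again included in these. Past the fold were 3 members upwards and 5 downwards (background 5.26% and 2.23% of all genes). Upwards these were 3 of 88 nuclear members (3.41%), below the background. Downwards they were 2 of 88 nuclear members (2.27%), near the background, and 3 of 19 mitochondrial ones (15.8%), above it. The 9 assembly factors together were at 0.765 (0.691 to 0.845), below the subunits at 0.963 (0.953 to 0.974).

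The 3 members past the fold upwards, Cox7a1, Cox6b2 and Ndufv3, were past it downwards in both cycle comparisons; the comparisons share cells and are not independent. Cox7a1 (chr7:30184144-30186078, GRCm38) was at 19.4 CPM against 6.64 CPM (13 against 110 UMIs), a ratio of 2.92 (1.51 to 5.20). Cox6b2 (chr7:4751792-4753094) was at 305 CPM against 131 CPM, a ratio of 2.34 (2.01 to 2.70). Ndufv3 (chr17:31520115-31531331) was at 521 CPM against 278 CPM, a ratio of 1.87 (1.67 to 2.09). Since hypoxia-high cells were more often cycle-low, the ratios were taken again within cycle-low cells: 1.75 (1.51 to 2.02) for Ndufv3, 2.76 (1.35 to 5.18) for Cox7a1 and 1.45 (1.17 to 1.77) for Cox6b2, of which Cox6b2 was no longer past the fold. Below them came Ndufa6, an accessory subunit of complex I, at 827 CPM against 652 CPM, a ratio of 1.27 (1.16 to 1.38) that did not pass it.

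The alternative complex IV genes that missed the limit of 50 UMIs stood out more. Ndufa4l2 (chr10:127514967-127517154), which can take the place of Ndufa4, had 16 against 17 UMIs, 23.8 against 1.03 CPM and a ratio of 23.2 (11.0 to 48.9). Cox8b (chr7:140898945-140900446) had 12 against 25 UMIs, 17.9 against 1.51 CPM and a ratio of 11.8 (5.42 to 24.5). Cox4i2 (chr2:152754173-152765037), which lowers the sensitivity of the enzyme to ATP and is induced by HIF-1 in other cells, had 5 against 10 UMIs, 7.45 against 0.604 CPM and a ratio of 12.3 (3.31 to 39.6). They came from few cells: Ndufa4l2 from 8 of 176 and 13 of 3400, Cox8b from 8 and 9, and Cox4i2 from 5 and 10, so single cells weigh heavily in each. The usual partners had ratios near or below 1: Ndufa4 was at 1525 CPM against 1798 CPM, a ratio of 0.849 (0.797 to 0.903), Cox4i1 at 0.992 (0.940 to 1.05) and Cox8a at 1.01 (0.944 to 1.08). In hypoxia-high cells Ndufa4l2 was still at 23.8 CPM beside 1525 CPM of Ndufa4. Not every minor form was seen to be higher: Cox6a2, a member, had 0 against 76 UMIs. The Poisson interval of a count of 0 reaches 5.49 CPM in hypoxia-high cells, above the 4.59 CPM of the others. The 0 therefore does not show whether Cox6a2 was lower or higher there. Higd1a, a HIF-induced protein that binds complex IV and lies outside the prefixes, was at 143 CPM against 35.4 CPM, a ratio of 4.04 (3.22 to 5.01).

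**Figure D4:**
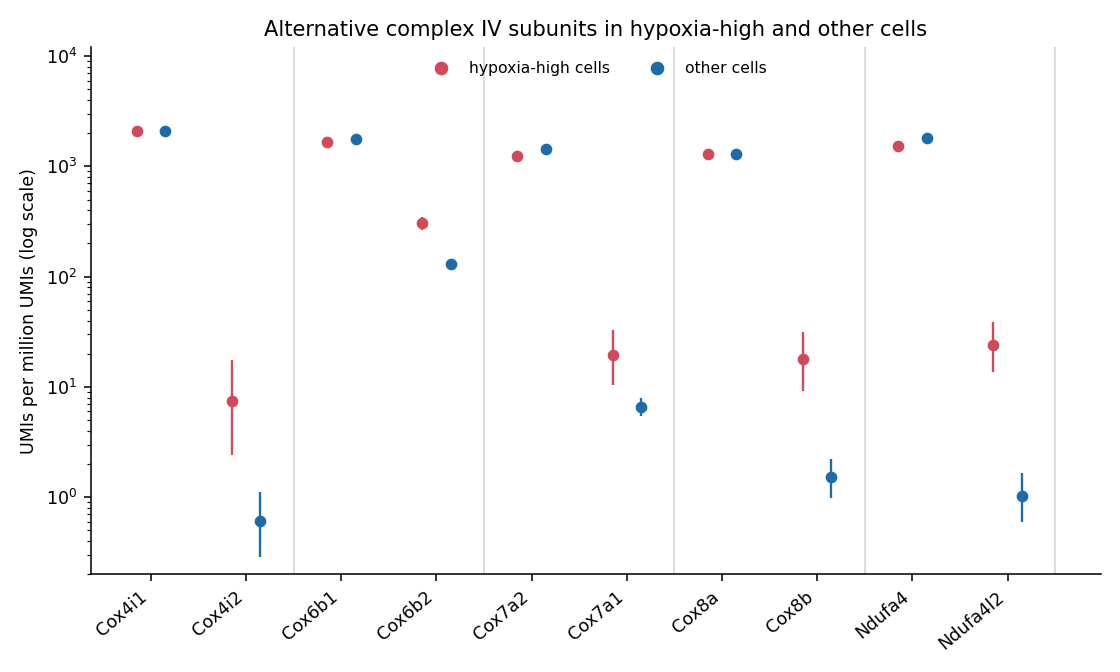
CPM on a log axis, with 95% Poisson intervals, of 5 pairs of alternative complex IV genes (Cox6a1 and Cox6a2, without a UMI of the latter in hypoxia-high cells, are not drawn) in the 176 hypoxia-high cells (red) and the 3400 other cells (blue). In each pair drawn the usual form sits above 1000 in both groups, and the minor form is higher in hypoxia-high cells, by 2.34 times for Cox6b2 and 23.2 times for Ndufa4l2.

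The nuclear members past the fold downwards in hypoxia-high cells were both assembly factors of complex I. Ndufaf6 (chr4:11051045-11076205) was at 23.8 CPM against 56.1 CPM (16 against 930 UMIs), a ratio of 0.425 (0.242 to 0.693), and Ndufaf4 (chr4:24898083-24905001) at 143 CPM against 232 CPM, a ratio of 0.617 (0.499 to 0.756). Within cycle-low cells the ratios were 0.421 (0.168 to 0.882) and 0.742 (0.560 to 0.967), neither past the fold. Sdhaf1, which helps insert the iron-sulfur clusters of complex II, had 0.654 (0.456 to 0.910). Of the 11 regulators of mitochondrial biogenesis measured, 1, Tfam, was past the fold downwards at 0.533 (0.365 to 0.752), and 0 upwards, and the sum had a ratio of 0.770 (0.675 to 0.875). Citric acid cycle genes had 0.899 (0.864 to 0.936) with 0 of 20 past the fold, and mitochondrial ribosomal protein genes 0.870 (0.849 to 0.891) with 2 of 76 past it downwards, where 2.23% of all genes were.

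The mitochondrial members, at 28113 against 30209.8 CPM, had a ratio of 0.931 (0.917 to 0.944) that summed genes on both sides of 1. Among cells above the median depth the ratio was 0.982 (0.964 to 1.001), an interval that reached 1. The genes at the start of the heavy-strand map were lower in hypoxia-high cells: mt-Rnr1 at 0.654 (0.602 to 0.710), mt-Nd1 at 0.694 (0.671 to 0.718) and mt-Nd2 at 0.752 (0.712 to 0.794), all past the fold. mt-Rnr2, which lies between mt-Rnr1 and mt-Nd1, was at 1.14 (1.11 to 1.17). mt-Co1 was at 1.23 (1.13 to 1.35), mt-Nd5 at 1.19 (1.12 to 1.27) and mt-Nd6 at 1.30 (1.04 to 1.59), mt-Nd4 at 0.999 (0.937 to 1.06) and mt-Cytb at 0.928 (0.898 to 0.959). mt-Rnr2 and mt-Rnr1, which are read from 1 precursor, thus lay on opposite sides of 1, mt-Rnr2 being 10297 and mt-Rnr1 873 CPM in hypoxia-high and 9031 and 1334 CPM in other cells. Within cycle-low cells the values were 0.718 (0.645 to 0.797) for mt-Rnr1, 0.620 (0.591 to 0.649) for mt-Nd1, 0.698 (0.647 to 0.751) for mt-Nd2, 1.08 (1.04 to 1.11) for mt-Rnr2 and 1.23 (1.10 to 1.38) for mt-Co1. The transfer RNA members had too few UMIs for narrow intervals: mt-Ta, the highest, was at 11 against 144 UMIs, a ratio of 1.88 (0.920 to 3.47), and mt-Tv, the lowest, at 3 against 211 UMIs, a ratio of 0.351 (0.0718 to 1.04). Among cells above the median depth mt-Nd1 and mt-Nd2 were at 0.779 and 0.855.

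**Figure D5:**
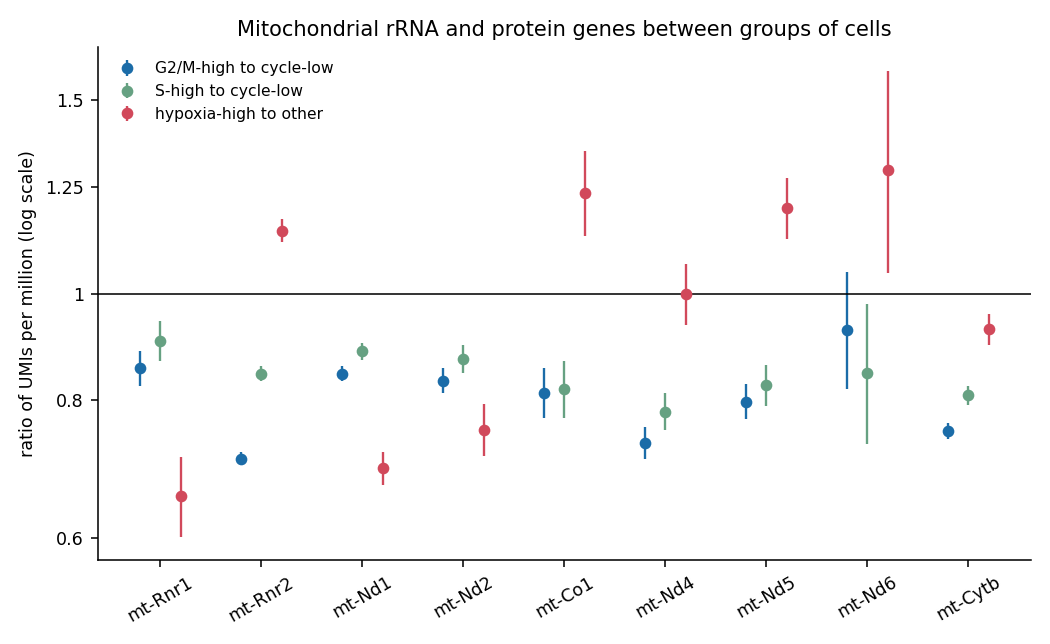
Ratio of CPM between groups of cells, on a log axis with 95% intervals, for the ribosomal RNA and protein gene members of the mitochondrial genome in map order. The G2/M (blue) and S (green) ratios are all below 1, whereas the hypoxia ratios (red) run from 0.654 for mt-Rnr1 to 1.30 for mt-Nd6.

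Some nuclear members share sequence motifs in their promoters. RefSeq promoter windows (build GRCm38.p6, 250 bases before to 50 after a start site) could be matched by symbol or synonym for 75 of the 88. The palindrome CGCATGCG, the core of the site bound by NRF1, was in 10 of their 81 windows, 12.3%, against 1.87% of all 32851 windows in the table. AAGATGGCG, the YY1 site, on either strand, was in 9, 11.1% against 1.40%. CCGGAAGT, bound by ETS factors such as GABP, was in 5, 6.17% against 3.89%, and ACGTG, the core of the HIF site, in 21, 25.9% against 19.6%. All 4 were searched separately on both strands, so matches of different motifs can share bases. A match is a description of the letters, not a bound site. The most abundant member with the NRF1 core was Cox6a1 and the most abundant with the YY1 site Atp5j2; their windows are shown, with the matching letters in capitals, as the 2 examples of these shared motifs.
Cox6a1, chr5:115348909-115349208, minus strand: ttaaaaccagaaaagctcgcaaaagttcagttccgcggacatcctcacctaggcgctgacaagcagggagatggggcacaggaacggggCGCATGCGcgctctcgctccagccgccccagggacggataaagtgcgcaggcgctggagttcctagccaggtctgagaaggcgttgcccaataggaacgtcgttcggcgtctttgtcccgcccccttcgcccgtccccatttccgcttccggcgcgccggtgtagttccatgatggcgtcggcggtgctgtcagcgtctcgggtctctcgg
Atp5j2, chr5:145191492-145191791, minus strand: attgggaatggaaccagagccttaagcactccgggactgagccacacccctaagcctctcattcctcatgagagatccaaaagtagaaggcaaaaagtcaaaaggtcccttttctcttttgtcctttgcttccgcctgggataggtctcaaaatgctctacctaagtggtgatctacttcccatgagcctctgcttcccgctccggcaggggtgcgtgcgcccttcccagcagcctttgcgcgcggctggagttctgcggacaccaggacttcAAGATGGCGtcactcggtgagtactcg

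The NRF1 core was also in the windows of Atp5j, Uqcr11, Atp5k, Uqcrc1, Ndufa11, Ndufa8, Ndufaf4, Ndufaf5 and Atp5l, and the YY1 site in those of Ndufc1, Atp5j, Ndufs6, Ndufs7, Ndufs4, Ndufa9 and Atp5sl, so members of complexes I, III, IV and V held one or the other. Of the 10 members with the NRF1 core, 8 had a ratio below 1 in G2/M-high and 7 in S-high cells. Their range was from 0.794 for Cox6a1 to 1.197 for Ndufaf5 in the former. Of the 8 with the YY1 site, 8 and 8 did, and of the 5 with the ETS site, 5 and 5, beside 57.8% and 56.4% of all genes. Among all nuclear members 87.5% and 86.4% were below 1, so these counts set no motif apart from the members as a whole.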

How the data were processed

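RNA was counted by Drop-seq, per the labels, and mm10 is the genome build that the submitters' processing notes name. The sources used here do not name the aligner, the counter or the read length. The authors deposited 1 table of raw UMI counts per gene and barcode, which was used as deposited. Barcodes with under 500 genes or over 10% mt- UMIs were left out (235 of 4000); 285 barcodes end in N and 25 pairs differ by 1 base, and these stayed in. Levels are CPM. Cells were thinned to 1000 UMIs (seed 0) and grouped at cuts near the top 20% of the S and G2/M lists and the top 5% of the HIF list; ratios compare summed UMIs. Intervals are exact 95% Poisson or conditional binomial ones. With 1 sample there is no test, and the rule for size was a whole interval below 0.8 or above its inverse. The rule was run on simulated Poisson counts, the model behind the intervals. That run cannot show how the rule does on cells that vary more than counting noise. Named genes were the highest and lowest member of each complex, the isoform pairs, all mt- protein genes, and up to 10 members at each end of each comparison, beside genes of the lists. Genome-wide copies were to be searched, but only annotated transcripts (GENCODE M21) were. Promoters came from RefSeq (GRCm38.p6). mt-Nd3, mt-Nd4l and mt-Atp8 were not among the genes of the count table. The members and lists were chosen with earlier results of these data known. Alternatives changed the filters, thinning, cuts, denominator, weights and seed. Intervals used scipy 1.17.1, tables pandas 2.3.3, figures matplotlib 3.10.9 and thinning numpy 2.4.6 under Python 3.11.15.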

Additional observations from a re-analysis of the deposited data

Results flagged for a closer look

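Barcodes left out for more than 10% mitochondrial UMIs, which enter no comparison above, still held nuclear members. The 103 of them with at least 500 genes had a median of 1080 UMIs, and their nuclear members stood at 37816 (36645 to 39014) CPM of the non-mitochondrial UMIs, against 54696 in the cells kept. Malat1 was at 34234 CPM there against 3312, and cytosolic ribosomal protein genes at 40123 against 85719. The part of these in the lower level of the members was not tested.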

How the results depend on the processing

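The filters moved the levels beyond counting error: with a gene minimum of 1000, a mitochondrial limit of 5% or no such limit, the nuclear members stood at 53322, 53325 and 52896 CPM and the mitochondrial ones at 29953, 28784 and 31068. No ratio of the sums changed sides of 1 under the alternatives run, but the interval of the mitochondrial hypoxia ratio above the median depth (0.964 to 1.001) reached it. For G2/M-high cells the nuclear ratio was 0.864 without doubtful barcodes (ending in N or 1 base from another), 0.864 after thinning to 2000 UMIs, 0.857 with cuts at 10% (cycle) and 2% (hypoxia) of cells, 0.861 above the median depth and 0.884 as CPM of the UMIs outside mitochondrial and grouping genes. The mitochondrial ratio was 0.807 with the 5% limit, 0.767 without doubtful barcodes, 0.764 at 2000 UMIs, 0.785 with the other denominator, 0.795 with cells weighted equally and 0.787 without cells with a UMI of a neuron marker other than Map2. For S-high cells the nuclear ratio was 0.866 with the narrower cuts, 0.871 above the median depth, 0.888 with the other denominator and 0.890 with equal weights, and the mitochondrial one 0.895 with the 5% limit, 0.836 without doubtful barcodes, 0.857 with the narrower cuts, 0.838 without hypoxia-high cells and 0.839 without those neuron-marker cells. The hypoxia ratios moved most. The nuclear one was 0.934 without doubtful barcodes, 0.943 at 2000 UMIs, 0.888 with the narrower cuts, 0.975 above the median depth, 0.923 with another seed, 0.942 with equal weights, 0.884 within cycle-low cells and 0.984 without neuron-marker cells. The mitochondrial one was 0.829 with the 5% limit, 0.915 without a limit, 0.900 without doubtful barcodes, 0.869 at 2000 UMIs, 0.859 with the narrower cuts, 0.982 above the median depth, 0.881 with another seed, 0.902 with equal weights and 0.868 within cycle-low cells. The other seed, equal weights, the crossed groups and leaving out neuron-marker cells were chosen after seeing the data. At a fold of 1.5, 1, 2 and 0 members were past it downwards in the G2/M, S and hypoxia comparisons. Of all genes, 3.29%, 1.73% and 0.534% were past it downwards. The cause of these shifts was not tested. The other 46 alternative values stayed within the counting interval or, for counts, within 1.5 times, among them 2 in place of 3 members past the fold upwards in the hypoxia comparison with a minimum of 500 UMIs per gene. Of all genes with that minimum, 4.54% were past the fold upwards in the hypoxia comparison. No paired analysis was possible because the table is 1 pooled sample.

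There is 1 pooled sample, so no value carries an error between cultures, and every group of cells was cut from a score of the same UMIs that give the levels. Doublets were not called. Genes with near-identical copies have uncertain levels, and members under 50 UMIs, such as Ndufa4l2, rest on a few cells. The hypoxia-high cells (176) hold 671332 UMIs, and the repeat within cycle-low cells rests on 107 of them.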
